A study of Mus musculus with 4 samples.

Results

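A set of 10 genes that are used as surface, adhesion or cytoplasmic markers of mouse spermatogonia was followed in male germ cells cultured with CBR-5884 or with its solvent DMSO. The members were taken by symbol, with no filter on their values: Itga6, Itgb1, Thy1, Cd9, Epcam, Cdh1, Cdh2, Tspan8, Uchl1 and Epha2. Earlier results of these data were known when the set was chosen. All 10 were found, each as 1 of the 36088 genes of the deposited table. The germ cells had the wild-type genotype and were sorted from fetal testes kept in culture, and the sample titles give day 14. One group of 2 libraries came from cultures with CBR-5884, a compound known to block Phgdh, the enzyme that opens the route to serine from glucose. The other group of 2 libraries came from cultures with DMSO, and the study asks about serine metabolism in male germ cell development. The design text calls the libraries biological replicates. The sources used here do not give the dose of CBR-5884, the strain, the age of the testes at the start, what day 14 is counted from, or which cultures or animals were pooled. The p-values therefore rest on the spread between these libraries only, that of the gene itself and that of genes at a similar level.

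Spermatogonia sit on the basement membrane of the seminiferous tubule. They hold on to its laminin through integrins, heterodimers of an alpha and a beta chain, and to Sertoli cells and to each other through cadherins, while tetraspanins and the adhesion protein Epcam organise such receptors in the plane of the membrane. Antibodies against several of these proteins are used to sort spermatogonial stem cells and progenitors from mouse testis, and none of the proteins is restricted to germ cells. Uchl1 differs from the other members in that it is a cytoplasmic ubiquitin hydrolase, used as an intracellular stain for spermatogonia.

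Gene levels spanned a wide range. The stretches before the RefSeq start sites of 3 members are shown because they stand at the top, near the top and at the bottom of it. Uchl1 had a mean of 1342 TPM (a transcript abundance relative to the library total and corrected for length) over the 4 libraries, Itgb1 160 TPM and Tspan8 4.66 TPM. The sequences are the first 220 bases of the RefSeq promoter windows on GRCm38.p6, all on the plus strand, written 5′ to 3′, with each CG dinucleotide in capitals. They cover chr5:66675871-66676090 for Uchl1, chr8:128685404-128685623 for Itgb1 and chr10:115817034-115817253 for Tspan8. The Tspan8 stretch lies inside the span that GENCODE M21 gives the gene, which starts at 115816832. Those of Uchl1 and Itgb1 lie before the GENCODE spans, so the stretches are not alike in position.
Uchl1: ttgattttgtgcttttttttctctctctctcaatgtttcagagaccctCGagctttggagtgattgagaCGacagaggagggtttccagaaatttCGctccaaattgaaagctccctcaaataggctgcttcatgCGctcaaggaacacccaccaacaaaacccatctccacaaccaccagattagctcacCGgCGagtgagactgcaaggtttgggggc
Itgb1: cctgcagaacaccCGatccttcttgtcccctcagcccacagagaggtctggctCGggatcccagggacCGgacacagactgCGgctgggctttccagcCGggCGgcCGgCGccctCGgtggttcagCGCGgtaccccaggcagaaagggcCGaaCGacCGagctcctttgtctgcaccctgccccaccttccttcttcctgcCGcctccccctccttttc
Tspan8: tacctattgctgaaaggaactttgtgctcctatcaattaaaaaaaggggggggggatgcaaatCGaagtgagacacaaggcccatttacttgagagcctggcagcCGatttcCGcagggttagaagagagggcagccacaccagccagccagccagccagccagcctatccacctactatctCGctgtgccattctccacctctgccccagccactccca
The printed stretches hold 6 CG dinucleotides for Uchl1, 15 for Itgb1 and 4 for Tspan8. Over the whole windows, from 250 bases before to 50 bases after the start, the ratio of observed CG dinucleotides to the number that the C and G content gives was 0.47 for Uchl1, 0.80 for Itgb1 and 0.25 for Tspan8. The median of this ratio over the 32851 windows of the RefSeq table was 0.38. The order of the 3 ratios was not the order of the levels, since Uchl1 had the highest level and the middle ratio. Windows were matched for 6 of the 10 members, and Cd9 (0.69), Epha2 (0.46) and Epcam (0.45) completed them. The letters GGGCGG, searched on both strands, occurred in the windows of Cd9, Epcam, Epha2 and Itgb1 and in 35.7% of all windows. No match to CCAAT, found in 37.4% of all windows, or to TATAAA, found in 13.6%, was present in the 6 windows on either strand.

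Markers of germ cells were high in all 4 libraries. The summed level of 8 germ cell markers was 2013 and 2007 TPM in CBR-5884 libraries 2 and 4 and 1990 and 1998 TPM in DMSO libraries 2 and 4. Dazl, an RNA-binding protein of the germ line, had at least 892 TPM and Ddx4, a germ line RNA helicase, at least 332 TPM in every library, while Dppa3, a marker of primordial germ cells, did not exceed 1.24 TPM. Somatic markers were present at levels far below the germ cell sum, and these varied between libraries of the same group. They were not all low beside the members. Amh (mean 27.8 TPM), Col1a1 (24.7 TPM), Inha (23.3 TPM) and Cldn11 (22.6 TPM) exceeded Epha2 (18.1 TPM) and the less abundant members. The other somatic markers listed had means below that of Epha2. The 7 Sertoli cell markers summed to 119 and 100.0 TPM with CBR-5884 and 140 and 76.2 TPM with DMSO. The interstitial mesenchyme list summed to 48.6 and 48.9 TPM with CBR-5884 and 52.4 and 43.3 TPM with DMSO, and the Leydig cell, peritubular, endothelial, macrophage and T cell, and epithelial lists stayed between 7.44 and 23.8 TPM in every library. Limma called 0 of the markers with a mean of at least 1 TPM, the only ones tested. These were 7 of 8 germ cell, 7 of 7 Sertoli cell and 6 of 6 mesenchyme markers. Of the other lists, 2 of 6 Leydig cell, 2 of 5 peritubular and 4 of 5 endothelial markers were tested. So were 3 of 6 macrophage and T cell and 2 of 4 epithelial markers. The estimated depth was 28200000 and 25300000 reads in CBR-5884 libraries 2 and 4 and 24600000 and 22500000 in DMSO libraries 2 and 4. The numbers 2 and 4 come from the table and could not be matched to the replicate numbers of the labels.

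**Figure D1:**
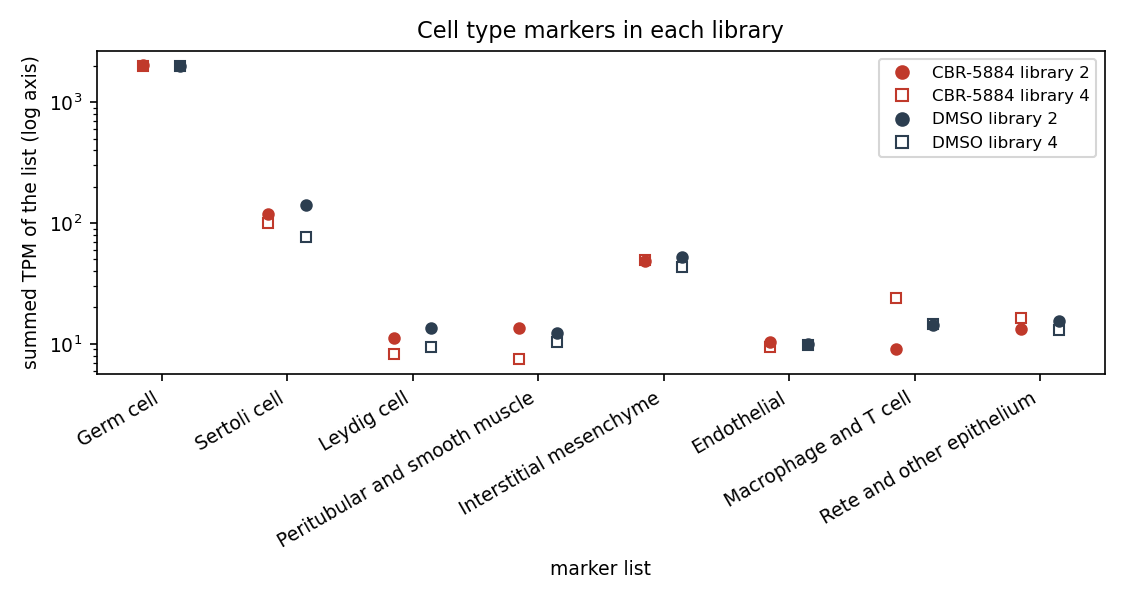
Summed TPM (log axis) of 8 lists of cell type markers, with CBR-5884 libraries left of DMSO libraries and 1 point per library. Germ cell markers lie between 1990 and 2013 TPM in every library, and the macrophage and T cell list is highest in CBR-5884 library 4, at 23.8 TPM.

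None of the 10 genes differed between CBR-5884 and DMSO past the threshold, an adjusted p under 0.05 from limma with Benjamini-Hochberg adjustment over all 14920 genes tested. The share of all genes that passed was 0%. All 10 members had a mean of at least 1 TPM and entered the test. Each had an adjusted p of 0.998, and 0 of the 10 had an unadjusted p under 0.05, against 3.66% of all genes tested. Of the members 7 had a positive and 3 a negative log2 fold change (CBR-5884 over DMSO, on the log2(TPM + 1) scale), with a median of 0.04. The median over all tested genes was -0.01. The CBR-5884 and DMSO libraries did not overlap for 2 members, Itgb1 and Cdh1, which is 20% of the members against 31.3% of all genes tested. The 95% interval of the difference lay within 1.5-fold either way for 7 members, where 58.3% of all genes tested did so, and within 2-fold for 9 members, where 85.4% did. Differences that lie inside these intervals remain compatible with the values. The intervals are not the limit of what the adjusted threshold could call, and with 2 libraries a group larger differences can miss it too. In these bulk samples fewer cells of a type and less RNA per cell cannot be told apart.

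**Figure D2:**
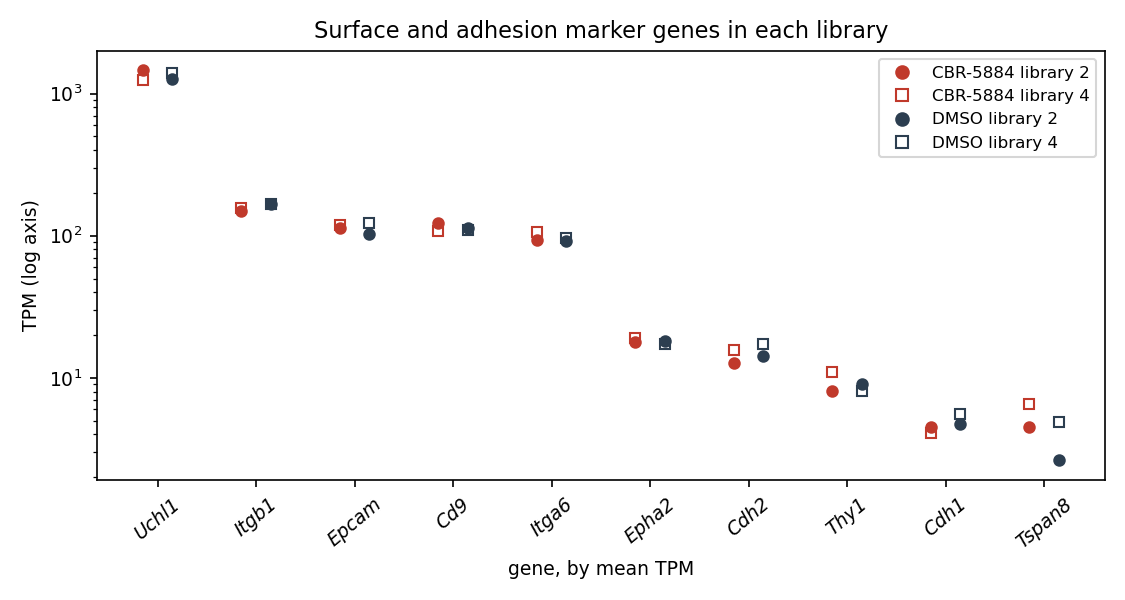
TPM (log axis) of the 10 genes in each library, ordered by mean level, with CBR-5884 libraries left of DMSO libraries. Levels run between 2.63 TPM for Tspan8 in DMSO library 2 and 1457 TPM for Uchl1 in CBR-5884 library 2, and the 4 points lie farthest apart for Tspan8.

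The integrin chains were abundant and close between the groups. Itga6, the alpha6 chain of laminin receptors and a common sorting marker of spermatogonial stem cells (ENSMUSG00000027111, chromosome 2, 71745616 to 71858416), had 93.1 and 106 TPM in CBR-5884 libraries 2 and 4, against 92.0 and 96.0 TPM in DMSO libraries 2 and 4. The groups overlapped, and the log2 fold change was 0.08 (SE 0.09, 95% interval -0.15 to 0.31). Itgb1, the beta1 chain that pairs with alpha6 (ENSMUSG00000025809, chromosome 8, 128685654 to 128733200), had 149 and 157 TPM with CBR-5884 and 168 and 167 TPM with DMSO. Both CBR-5884 libraries lay below both DMSO libraries, with a log2 fold change of -0.13 (SE 0.07, 95% interval -0.31 to 0.05). This was the smallest unadjusted p of the members, 0.130 (limma adjusted p = 0.998). The ratio of Itga6 to Itgb1 within a library was 0.626 and 0.674 with CBR-5884 and 0.549 and 0.575 with DMSO. The ratios did not overlap between the groups, but a difference of this ratio was not tested across all genes and an exact two-sided permutation test of 2 against 2 libraries cannot go below a p of 0.33.

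The other integrin genes gave no call either. Of 15 further integrin subunits 10 were tested, 0 passed the threshold in either direction, and the median log2 fold change was 0.02. Itgb5, a beta chain that pairs with alphaV, was the most abundant, with 27.8 and 36.7 TPM in CBR-5884 libraries and 26.7 and 32.0 TPM in DMSO libraries. Itgav, that alphaV chain, had 10.7 and 12.3 TPM with CBR-5884 and 10.5 and 8.30 TPM with DMSO. Of 13 tested genes of the machinery inside the cell that links integrins to actin, 0 passed, 4 had a positive and 9 a negative log2 fold change, and the median was -0.04. In this list Ptk2, the focal adhesion kinase, had 138 and 133 TPM with CBR-5884 and 144 and 141 TPM with DMSO, and Ilk, the integrin-linked kinase, had 92.5 and 92.2 TPM with CBR-5884 and 97.1 and 93.8 TPM with DMSO. Fermt2, which activates integrins, had 81.8 and 74.7 TPM with CBR-5884 against 83.2 and 91.6 TPM with DMSO, and Rsu1, a partner of the Ilk complex, 43.1 and 42.2 TPM with CBR-5884 against 50.2 and 44.6 TPM with DMSO. Among 13 tested laminins and other ligands 0 passed and the median was 0.04. Fn1 (fibronectin) had 87.3 and 100.4 TPM with CBR-5884 and 86.1 and 97.8 TPM with DMSO, and Nid2, a linker of basement membranes, had 93.5 and 93.9 TPM with CBR-5884 and 101.5 and 81.4 TPM with DMSO. At a mean of at least 5 TPM, the 2 genes of that list with the smallest p were Lamb2, with 12.9 and 13.7 TPM with CBR-5884 and 11.0 and 8.30 TPM with DMSO (limma unadjusted p = 0.0589, adjusted p = 0.998), and Lamb1, with 59.3 and 58.6 TPM with CBR-5884 against 52.6 and 57.3 TPM with DMSO.

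Both tetraspanins were expressed, at very different levels. Cd9, a tetraspanin of the spermatogonial surface that is also known for its role on the egg in fertilisation (ENSMUSG00000030342, chromosome 6, 125460266 to 125494791), had 124 and 107 TPM in CBR-5884 libraries 2 and 4, against 113 and 109 TPM in DMSO libraries 2 and 4. The groups overlapped, with a log2 fold change of 0.05 (SE 0.09, 95% interval -0.18 to 0.28). Transcripts of other genes hold 10.8% of its 31-base words on the same strand and 15.5% on the opposite strand, and the sources used here do not say whether counting used the strand, so a small part of its level is uncertain. Tspan8, used to enrich spermatogonia with stem cell activity in mice (ENSMUSG00000034127, chromosome 10, 115816832 to 115849893), had 4.55 and 6.53 TPM with CBR-5884 and 2.63 and 4.92 TPM with DMSO. This was the widest spread among the members, 2.48 times between the highest and the lowest library, and the only one that reached 1.5 times, which 29.3% of all genes tested did. Library 4 was above library 2 in both groups, and CBR-5884 library 2 lay below DMSO library 4. The log2 fold change was 0.48 (SE 0.32, 95% interval -0.30 to 1.25, that is 0.81-fold to 2.39-fold; limma adjusted p = 0.998). Leaving out CBR-5884 library 4 gave 0.26 and leaving out CBR-5884 library 2 gave 0.70. The log2 fold change was 0.13 with DMSO library 2 left out and 0.83 with DMSO library 4 left out. Each of these fits leaves 1 library in a group, so only the size of the difference is given. An antisense gene overlaps an exon of Tspan8, but transcripts of other genes hold only 0.06% of its words on the opposite strand. The window of Tspan8 also held the fewest CG dinucleotides of the 6 windows, which describes these genes only.

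Of 15 other tested tetraspanins and partner proteins, 0 passed the threshold, 7 had a positive and 8 a negative log2 fold change, and the median was -0.0033. An unadjusted p under 0.05 was reached by 0 genes with a positive and 2 with a negative log2 fold change, Tspan4 and Tspan9. Over all genes tested, 1.51% reached it with a positive and 2.15% with a negative log2 fold change. Tspan4, a tetraspanin of migrating cells, had 36.9 and 34.0 TPM with CBR-5884 and 44.0 and 50.1 TPM with DMSO (limma unadjusted p = 0.0114, adjusted p = 0.998). Tspan9, a related family member, had 34.9 and 31.01 TPM with CBR-5884 and 41.2 and 41.6 TPM with DMSO (limma unadjusted p = 0.0232, adjusted p = 0.998). Neither gene's groups overlapped. Groups did not overlap for 7 of the 15 genes, or 46.7%, against 31.3% of all genes tested. Tspan3 was the most abundant, with 133 and 127 TPM with CBR-5884 and 140 and 126 TPM with DMSO, and Cd81, a tetraspanin that acts beside Cd9 on the egg, had 53.9 and 69.1 TPM with CBR-5884 and 69.4 and 75.2 TPM with DMSO.

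Epcam, a homophilic adhesion protein found on epithelia and on germ cells (ENSMUSG00000045394, chromosome 17, 87635979 to 87651129), had 112 and 118 TPM in CBR-5884 libraries 2 and 4, against 103 and 123 TPM in DMSO libraries 2 and 4. The DMSO libraries enclosed both CBR-5884 libraries, and the log2 fold change was 0.04 (SE 0.11, 95% interval -0.22 to 0.30). Its level could not be told apart from that of Cd9 by the ranges over the 4 libraries, with means of 114 and 113 TPM. Markers of other epithelium were low beside it. Krt8 did not exceed 0.588 TPM and Krt18 did not exceed 1.03 TPM in any library, while the keratin Krt19 had 3.09 and 2.47 TPM with CBR-5884 and 5.08 and 3.54 TPM with DMSO. Pax8, a transcription factor of the rete testis, had 8.92 and 13.2 TPM with CBR-5884 and 8.83 and 8.66 TPM with DMSO. The part of such cells in the level of Epcam was not tested. Of 10 tested partners of Epcam, mostly proteases, inhibitors and claudins, 0 passed the threshold and the median log2 fold change was 0.08. Spint2, a protease inhibitor, had 185 and 164 TPM with CBR-5884 and 189 and 172 TPM with DMSO, and Adam17, a sheddase, had 65.2 and 65.9 TPM with CBR-5884 and 58.4 and 65.5 TPM with DMSO. The protease Bace1 had 4.11 and 7.85 TPM with CBR-5884 against 4.16 and 4.49 TPM with DMSO.

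The cadherins Cdh1 and Cdh2 were far less abundant than the integrins Itga6 and Itgb1. Cdh1, the E-cadherin of undifferentiated spermatogonia and of epithelia (ENSMUSG00000000303, chromosome 8, 106603351 to 106670246), had 4.55 and 4.09 TPM in CBR-5884 libraries 2 and 4, against 4.75 and 5.56 TPM in DMSO libraries 2 and 4. Both CBR-5884 libraries lay below both DMSO libraries, by a margin smaller than the spread between the DMSO libraries, with a log2 fold change of -0.21 (SE 0.22, 95% interval -0.73 to 0.32). Cdh2, the N-cadherin of Sertoli and germ cell contacts (ENSMUSG00000024304, chromosome 18, 16588877 to 16809246), had 12.7 and 15.7 TPM with CBR-5884 and 14.3 and 17.2 TPM with DMSO. The groups overlapped, library 4 was above library 2 in both groups, and the log2 fold change was -0.14 (SE 0.18, 95% interval -0.57 to 0.29). Sertoli cells express Cdh2 too, and the summed Sertoli cell markers were lowest in DMSO library 4, where Cdh2 was highest. Of that list Gata4 was highest in DMSO library 4, at 11.7 TPM, and every other marker was lowest there. The part of Sertoli cells in the level of Cdh2 was not tested. Cdh2 exceeded Cdh1 in every library, by 2.79 and 3.85 times with CBR-5884 and 3.01 and 3.09 times with DMSO.

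Of 12 other tested cadherins, catenins and nectins, 0 passed the threshold, 4 had a positive and 8 a negative log2 fold change, and the median was -0.04. Ctnnb1, the beta-catenin that binds the tails of both cadherins, was far above them, with 500.1 and 512 TPM in CBR-5884 libraries and 503 and 508 TPM in DMSO libraries. Ctnna1, the alpha-catenin that links this complex to actin, had 139 and 151 TPM with CBR-5884 and 154 and 151 TPM with DMSO. Jup, the relative of beta-catenin found in desmosomes, had 16.3 and 15.2 TPM with CBR-5884 and 18.7 and 19.9 TPM with DMSO (limma unadjusted p = 0.0828, adjusted p = 0.998), and Afdn, an adaptor of nectins, had 112 and 119 TPM with CBR-5884 and 131 and 125 TPM with DMSO. The groups of Jup and Afdn, which were named for their small p, did not overlap, and those of Ctnnb1 did. Groups did not overlap for 3 of the 12 genes, or 25%, against 31.3% of all genes tested.

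Thy1, a small glycoprotein held in the membrane by a lipid anchor and used to sort spermatogonial stem cells (ENSMUSG00000032011, chromosome 9, 44043384 to 44048579), had 8.09 and 11.0 TPM in CBR-5884 libraries 2 and 4, against 9.10 and 8.10 TPM in DMSO libraries 2 and 4. The CBR-5884 libraries enclosed both DMSO libraries, with a log2 fold change of 0.13 (SE 0.21, 95% interval -0.38 to 0.63). T cells and fibroblasts also express Thy1. The 6 macrophage and T cell markers summed to 9.06 and 23.8 TPM with CBR-5884 and 14.3 and 14.4 TPM with DMSO. That list, like Thy1, was highest in CBR-5884 library 4. Its largest values there were the macrophage markers C1qa (10.98 TPM), Csf1r (6.34 TPM) and Adgre1 (4.12 TPM). Of the interstitial mesenchyme list, Col1a1 (29.1 TPM) and Tcf21 (1.75 TPM) were highest in that library and Col3a1 (4.88 TPM) was lowest. The rest of that list was neither. The T cell marker Cd3e had 0.647 and 0.424 TPM with CBR-5884 and 1.06 and 0.915 TPM with DMSO and was lowest in that library. Cd2, the other T cell marker of the list, had 0.274 and 0.753 TPM with CBR-5884 and 0.265 and 0.776 TPM with DMSO, and was higher in library 4 of both groups. The part of other cells in the level of Thy1 was not tested.

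Epha2, a receptor tyrosine kinase for ephrin-A ligands (ENSMUSG00000006445, chromosome 4, 141301240 to 141329384), had 17.9 and 19.2 TPM in CBR-5884 libraries 2 and 4, against 18.2 and 17.2 TPM in DMSO libraries 2 and 4. The groups overlapped, and the spread between the highest and lowest library, 1.11 times, was the smallest of the members. The log2 fold change was 0.06 (SE 0.13, 95% interval -0.26 to 0.38). Of 17 other tested Eph receptors and ephrins, 0 passed the threshold, 10 had a positive and 7 a negative log2 fold change, and the median was 0.04. Efna2, an ephrin-A ligand, was the most abundant at 25.7 and 26.3 TPM with CBR-5884 and 25.3 and 26.1 TPM with DMSO, followed by Efnb3, at 17.2 and 14.96 TPM with CBR-5884 and 16.1 and 15.1 TPM with DMSO. The smallest p of this list belonged to Efnb1, at 11.1 and 8.18 TPM with CBR-5884 against 11.8 and 13.95 TPM with DMSO (limma unadjusted p = 0.0945, adjusted p = 0.998), and to Efna3, at 8.69 and 7.91 TPM with CBR-5884 against 9.23 and 11.0 TPM with DMSO.

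Uchl1, the ubiquitin hydrolase also called PGP9.5 (ENSMUSG00000029223, chromosome 5, 66676091 to 66687234), was the most abundant member, above 99.6% of all genes tested. It had 1457 and 1252 TPM in CBR-5884 libraries 2 and 4, against 1274 and 1386 TPM in DMSO libraries 2 and 4. The CBR-5884 libraries enclosed both DMSO libraries, with a log2 fold change of 0.02 (SE 0.10, 95% interval -0.23 to 0.28). An antisense gene, Uchl1os, overlaps its exons and has no value of its own in the deposited data. Transcripts of other genes hold 14.8% of the 31-base words of Uchl1 on the opposite strand. The share that belongs to Uchl1os was not counted, and reads made of such words cannot be assigned without strand. Of 11 other tested ubiquitin hydrolases and ubiquitin genes, 0 passed the threshold, 5 had a positive and 6 a negative log2 fold change, and the median was -0.02. Uchl5, a relative of Uchl1 that acts at the proteasome, had 383 and 326 TPM with CBR-5884 and 412 and 437 TPM with DMSO (limma unadjusted p = 0.0362, adjusted p = 0.998). The groups of Uchl5, named for its small p, did not overlap. This held for 2 of the 11 genes, or 18.2%, against 31.3% of all genes tested. Usp7, another deubiquitinase, had 185 and 194 TPM with CBR-5884 and 199.8 and 201 TPM with DMSO. Ubb, a gene that encodes ubiquitin itself, had 1277 and 1154 TPM with CBR-5884 against 1277 and 1184 TPM with DMSO.

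**Figure D3:**
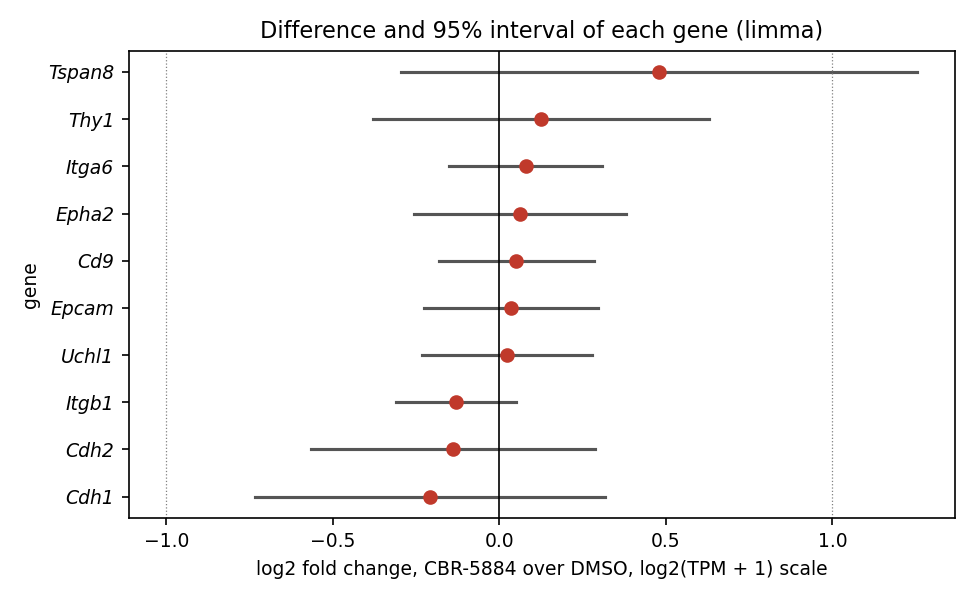
Log2 fold change of each gene, CBR-5884 over DMSO, on the log2(TPM + 1) scale (points) with its 95% interval from limma (lines), 2 libraries a group. Dotted lines mark 2-fold either way, every interval includes 0, and only that of Tspan8 passes 2-fold.

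The order of the mean levels over the 4 libraries was Uchl1, Itgb1, Epcam, Cd9, Itga6, Epha2, Cdh2, Thy1, Cdh1 and Tspan8. Of the 9 pairs of neighbours, 2 in this order had ranges that overlapped, Epcam with Cd9 and Cdh1 with Tspan8. The ranges of the other 7 pairs did not overlap, and the largest step was 8.38 times between Uchl1 and Itgb1. Epha2 and Cdh2 came close, with a lowest library of 17.22 TPM for Epha2 and a highest of 17.18 TPM for Cdh2, and their step of 1.21 times was smaller than the spread of Cdh2 over the libraries, 1.35 times. Levels between genes are compared here in TPM, which corrects for length. 

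Other surface proteins of spermatogonia gave no call. Of 16 tested, 0 passed the threshold, 7 had a positive and 9 a negative log2 fold change, and the median was -0.02. Mcam, an adhesion protein of the immunoglobulin family, had 196 and 242 TPM in CBR-5884 libraries and 198 and 221 TPM in DMSO libraries, and Tex101, a lipid-anchored germ cell protein, had 180 and 210 TPM with CBR-5884 and 196 and 198 TPM with DMSO. Kit, the stem cell factor receptor that marks spermatogonia entering differentiation, had 62.2 and 82.4 TPM with CBR-5884 and 70.0 and 111 TPM with DMSO, and Cd24a, a lipid-anchored surface protein, had 11.1 and 8.50 TPM with CBR-5884 and 8.85 and 7.35 TPM with DMSO. The groups of all 4 genes overlapped. Over the 117 tested genes of all 9 lists of partners and relatives, limma called 0 higher and 0 lower (adjusted p under 0.05). An unadjusted p under 0.05 was reached by 0 with a positive and 3 with a negative log2 fold change, the third being Uchl5, where 1.51% of all genes tested did so with a positive and 2.15% with a negative one. The groups did not overlap for 30 of the 117, or 25.6%, against 31.3% of all genes tested, and the median log2 fold change was 0.0011.

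**Figure D4:**
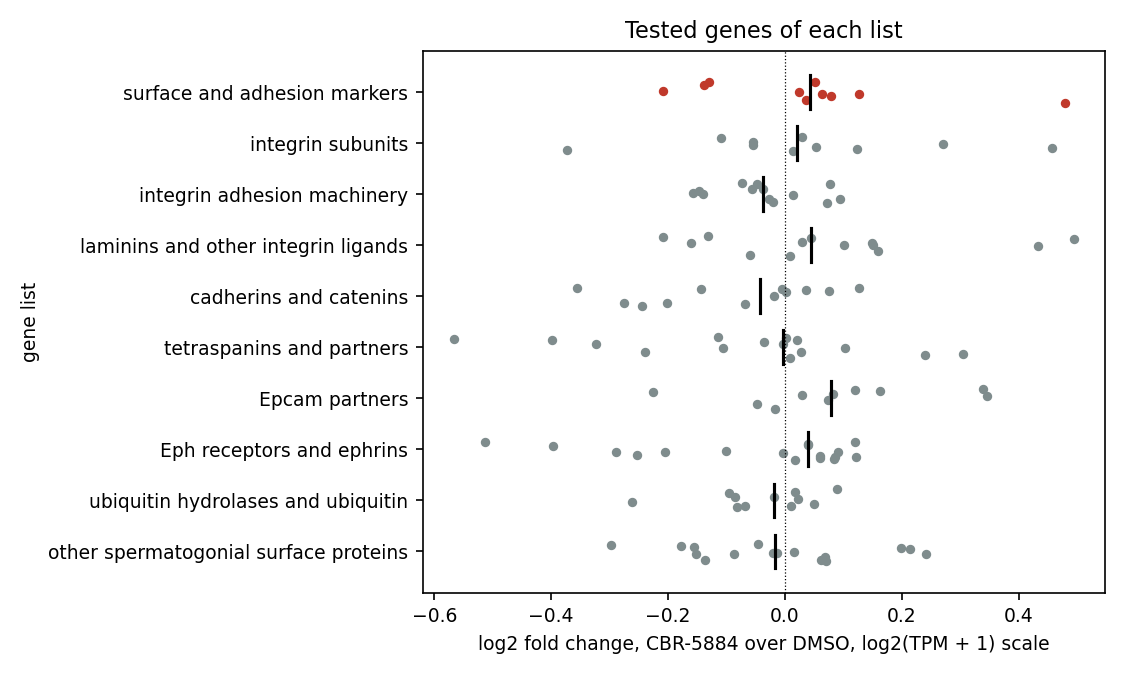
Log2 fold change, CBR-5884 over DMSO, on the log2(TPM + 1) scale, of every tested gene in the 10 lists (points), with the median of each list (black bars). The medians lie between -0.04 and 0.08, and points are spread vertically only to separate them.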

How the data were processed

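RNA was measured in 2 libraries of sorted male germ cells with CBR-5884 and 2 with DMSO. Per the labels' protocols, RNA came from an RNeasy micro kit and 100 ng entered a TruSeq RNA kit. The submitters' processing notes name kallisto, fastp and the build mm10, without versions, and the sources used here do not state the annotation or the use of strand. The deposited table gives TPM and scaled reads per base, both gene-level signal values, repeated for each transcript, and was reduced to 1 value per gene and library (36088 genes). TPM summed to 966761 to 1002976 per library. Depth was estimated from the scaled reads and the step between their low values. Of the low values, those up to 20.5 steps, only 35.1 to 36.2% were whole steps within 0.05, so counts could not be recovered and no count test was used.

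CBR-5884 and DMSO were compared, two-sided, by limma-trend (limma 3.58.1, R 4.3.3) on log2(TPM + 1). The 14920 genes averaging at least 1 TPM entered, with no covariate and Benjamini-Hochberg adjustment. The fit was tested on simulated data. A fold change on this scale understates the change of low genes. Members, lists and tests were chosen with earlier results of these data known. All members are named, and for each list of partners the 2 most abundant genes and the 2 with the smallest p at a mean of at least 5 TPM. Some genes that this rule names are not reported here. Positions are from GENCODE M21 on GRCm38 (mm10), 1-based. Promoter windows are RefSeq's on GRCm38.p6. Shared words are 31-base words of GENCODE M21 transcripts. Alternatives changed the measure, pseudocount, filter, scaling, variance and libraries, or added the library number as a block.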

Additional observations from a re-analysis of the deposited data

How the results depend on the processing

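Across 13 alternative settings, 0 of the 10 members and 0 partner or marker genes passed the threshold. Over all genes 0 were called in each setting except scaled reads per base (1 gene) and robust variance estimates (1 gene). The members that changed direction did so only where a library was left out. The log2 fold change of Cd9 ran from -0.0503 to 0.153, Cdh2 from -0.285 to 0.00654, Epcam from -0.0945 to 0.165, Itga6 from -0.0139 to 0.171, Thy1 from -0.0762 to 0.328 and Uchl1 from -0.0856 to 0.133 over those 4 fits, and the cause was not tested. Cdh1 (-0.30 to -0.11), Epha2 (0.02 to 0.11), Itgb1 (-0.17 to -0.09) and Tspan8 (0.13 to 0.83) kept their sign. The highest value of Tspan8, 0.83, came without DMSO library 4, a fit with 1 DMSO library. A lone library in such a fit is assumed to vary like the other group. Cdh1 and Tspan8, with means under 5 TPM, have no value under the filter of at least 5 TPM. With the library number of the table as a replicate block, 0 genes and 0 members were called, and genes at an unadjusted p under 0.05 numbered 797, against 546 without it. The differences between libraries 2 and 4 in both groups correlated at 0.20 across genes, and with only 2 numbers this does not show that they pair the libraries. Intervals come from the spread between 2 libraries a group, which limma-trend drew toward the spread of tested genes at a similar level. The small groups limit what can be detected.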
